A study of Mus musculus with 6 samples.

Results

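The 10 genes *Stab1*, *Stab2*, *Lyve1*, *Mrc1*, *Fcgr2b*, *Scarf1*, *Cd36*, *Clec4g*, *Clec1b* and *Colec12* encode endocytic scavenger, Fc and lectin receptors of the liver sinusoidal endothelial cell (LSEC), the fenestrated endothelial cell that lines the hepatic sinusoid. They were taken by gene symbol, and all 10 were found among the 23282 rows of the count files. All 10 were also among the 11583 genes that passed a filter on low counts and were tested. RNA was compared between 3 libraries of LSECs from Txnip-/- mice (TXNIP-/- in the sample labels) and 3 libraries of LSECs from wild-type (WT) mice. The Txnip-/- mice lack *Txnip*, which encodes thioredoxin-interacting protein, in every cell of the body, so the deletion was not limited to the endothelium. Both genotypes were on the C57BL/6J background. LSECs were obtained by collagenase perfusion of the liver, a density gradient and magnetic beads against CD146. The methods describe culture of selected LSECs in endothelial growth medium. They do not say whether, or for how long, the cells of these libraries were cultured before RNA was taken. The labels give neither age nor treatment for these libraries, and they do not say whether each library came from a separate mouse, so the p-values measure only the spread between these libraries, which may be technical.

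LSECs clear waste macromolecules from portal blood through receptors that carry ligands into clathrin-coated pits and on to lysosomes. The stabilins bind hyaluronan, modified lipoproteins and matrix fragments, the mannose receptor takes up glycoproteins and collagen fragments, and the inhibitory Fc receptor takes up small immune complexes. Lectins of the CLEC family and scavenger receptors such as CD36 add further ligands, and several of these genes serve as markers of the differentiated LSEC.

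The counts of the 6 libraries summed to between 9147764 and 10193952, and 3 counts, taken as the floor of detection, equalled 0.294 to 0.328 CPM, the count relative to the library total. The count of *Txnip* was 1901 to 2019 in WT libraries and 191 to 269 in Txnip-/- libraries, so all 6 labels matched the genotype. The *Txnip* counts left in Txnip-/- libraries lay above the floor, and their source was not tested. WT replicate 3 stood apart from WT replicates 1 and 2. The ribosomal RNA precursor *Rn45s* took 17.8% of its counts, beside 10.03% and 9.68% in WT replicates 1 and 2 and 16.8% to 18.6% in the Txnip-/- libraries. All 12 LSEC identity markers were tested, whereas the lymphocyte and the neutrophil markers each summed to at most 1.63 CPM in any library. Levels below are CPM scaled by TMM factors, and differences are log2 fold changes of Txnip-/- against WT with their standard errors (SE).

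Transcripts of 3 of the 10 receptor genes fell in Txnip-/- LSECs by edgeR's quasi-likelihood test at an adjusted p under 0.05. They were the mannose receptor *Mrc1* and both stabilins, with fitted levels of 0.591 of WT for *Mrc1*, 0.727 for *Stab1* and 0.777 for *Stab2*. The other 7 did not pass the test, although all 10 fitted differences were below 0. Over all genes tested 1.55% were called in either direction and 0.976% were called lower. In these bulk libraries fewer LSECs and less receptor RNA in each LSEC cannot be told apart. Kupffer cell and macrophage markers moved with these genes: all 14 tested had lower levels in Txnip-/- LSECs, 12 of them called, and the list of 17 summed to 327 to 360 CPM beside 806 to 838 CPM in WT. *Mrc1* and *Stab1* are also expressed by macrophages, and the part of macrophage RNA in their values was not tested.

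The members spanned a wide range of levels. In WT LSECs *Lyve1* was the most abundant and ranked 16 among all tested genes by mean CPM. *Stab1* ranked 386, *Stab2* 664 and *Mrc1* 1486, followed by *Fcgr2b*, *Clec1b*, *Cd36*, *Scarf1*, *Clec4g* and, at rank 9602, *Colec12*. QuantSeq reads start near the 3′ end of a transcript, so these CPM were compared between genes without division by length. Of neighbours in the WT order, *Mrc1* and *Fcgr2b* overlapped in range and the others did not. In Txnip-/- LSECs *Fcgr2b* stood above *Mrc1* in every library, while the ranges of *Mrc1* and *Clec1b* overlapped, as did those of *Cd36* and *Scarf1*.

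**Figure D1:**
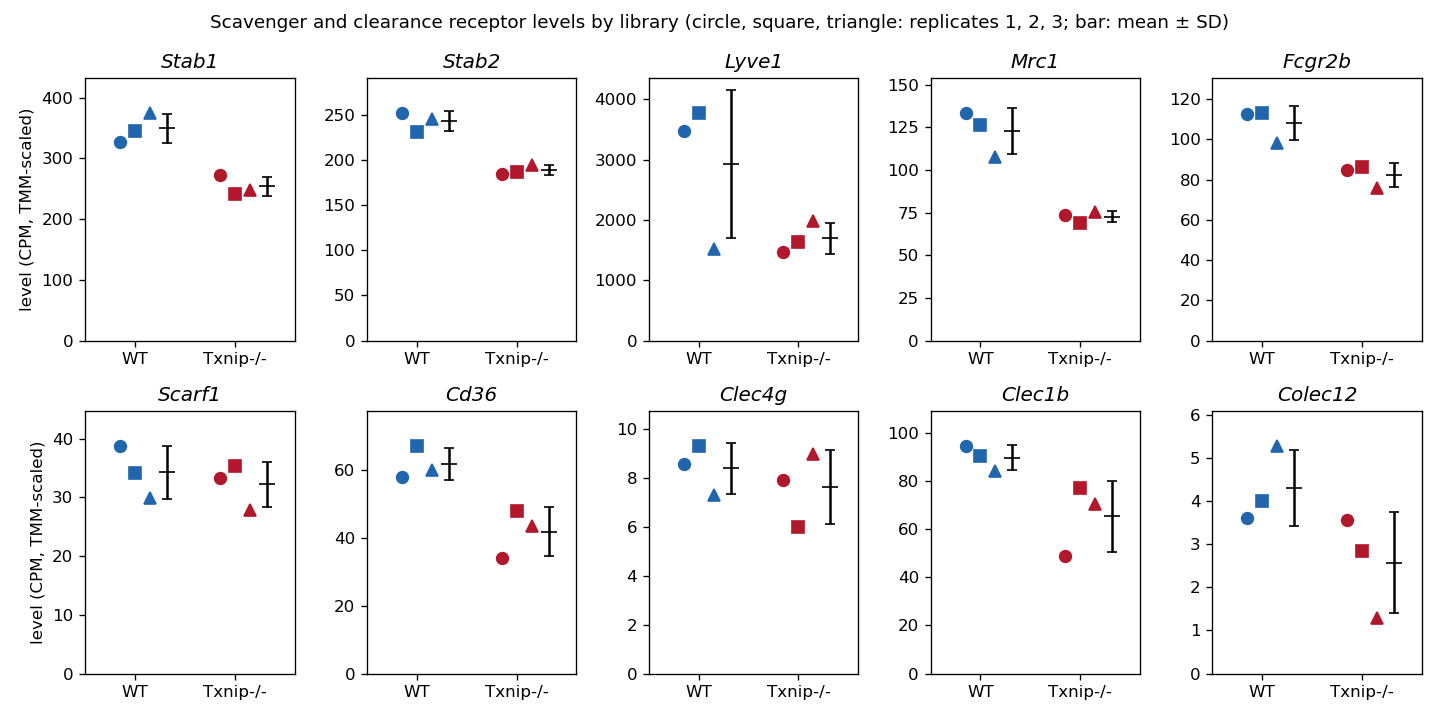
Level of each of the 10 receptor genes in each library, in TMM-scaled CPM from 0 upwards (circle, square and triangle, replicates 1, 2 and 3; blue, WT; red, Txnip-/-; bar, mean ± SD, n = 3). *Stab1*, *Stab2* and *Mrc1* lay lower in all 3 Txnip-/- libraries than in any WT library, whereas for *Lyve1* WT replicate 3, at 1520 CPM, lay among the Txnip-/- libraries.

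The promoters of the 3 genes that fell, and of *Clec1b*, are shown because these members moved or because their promoters differ in the motifs looked for. Each is the 250 bases upstream of the RefSeq start site in GRCm38.p6, written along the gene's strand, with matches on either strand in capitals. Capitals mark GGAAG (a form of the site bound by ETS factors, CTTCC on the other strand) in *Stab1*, *Stab2* and *Mrc1*. In *Clec1b* they mark GATAA (bound by GATA factors, TTATC on the other strand). Other forms of the ETS site were not looked for. Gene positions given below come from another annotation, GENCODE, and its starts can differ from those of RefSeq. The windows of *Stab2* and *Mrc1* run into the gene as GENCODE places it, and the GGAAG match of *Stab2* lies in that part.
Stab1, chr14:31168642-31168891, minus strand: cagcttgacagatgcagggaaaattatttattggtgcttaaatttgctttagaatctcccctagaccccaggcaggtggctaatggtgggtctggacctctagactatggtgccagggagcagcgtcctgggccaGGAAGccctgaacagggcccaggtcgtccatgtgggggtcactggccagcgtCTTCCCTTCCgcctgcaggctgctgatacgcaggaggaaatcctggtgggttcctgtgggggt
Stab2, chr10:87007943-87008192, minus strand: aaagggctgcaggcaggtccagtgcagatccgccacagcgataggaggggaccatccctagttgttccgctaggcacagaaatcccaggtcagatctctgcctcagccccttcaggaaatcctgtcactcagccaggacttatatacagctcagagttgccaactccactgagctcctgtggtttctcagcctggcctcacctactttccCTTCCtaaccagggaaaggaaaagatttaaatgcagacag
Mrc1, chr2:14229164-14229413, plus strand: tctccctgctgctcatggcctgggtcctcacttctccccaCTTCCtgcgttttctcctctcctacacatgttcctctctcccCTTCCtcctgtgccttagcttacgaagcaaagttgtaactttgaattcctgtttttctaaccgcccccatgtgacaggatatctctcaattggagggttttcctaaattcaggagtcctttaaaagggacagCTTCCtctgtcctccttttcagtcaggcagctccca
Clec1b, chr6:129397047-129397296, plus strand: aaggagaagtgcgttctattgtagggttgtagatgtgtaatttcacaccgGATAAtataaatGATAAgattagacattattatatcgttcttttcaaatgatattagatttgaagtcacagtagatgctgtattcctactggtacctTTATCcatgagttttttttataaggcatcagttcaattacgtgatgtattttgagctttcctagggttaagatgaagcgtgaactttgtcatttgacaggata

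The table of promoters held 7 of the 10 members, without *Lyve1*, *Scarf1* and *Colec12*. GGAAG was found in 6 of the 7, with 3 matches each in *Stab1*, *Mrc1* and *Clec4g*, and it was found in 64.1% of the 32851 promoters of this length. GATAA was found in 1 of the 7, *Clec1b*, with 3 matches, and in 22.6% of all promoters. TGCTGAC, a half-site of large Maf factors, was found in none of the 7 and in 3.81% of all promoters. These matches describe the letters of the windows, and an absent match says only that the letters are not in the window.

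The stabilins are large transmembrane receptors that share fasciclin and EGF-like domains. *Stab1* (chr14:31139013-31168641, minus strand, 69 exons) encodes stabilin-1, a receptor for acetylated lipoprotein and for the matrix protein SPARC. Its level was 272, 242 and 247 CPM in Txnip-/- replicates 1, 2 and 3 and 328, 345 and 376 CPM in WT replicates 1, 2 and 3. The highest Txnip-/- library lay below the lowest WT library. The log2 fold change was -0.46 (SE 0.089, 95% interval -0.65 to -0.27) with an edgeR adjusted p of 0.00984. The call was lost without Txnip-/- replicate 2 (adjusted p = 0.0839) or replicate 3 (0.0739) and with size factors from pan-endothelial genes (0.0879), all by edgeR. With the replicate number as a block it was lost as well (edgeR adjusted p = 0.0507). Its 3′ end overlaps *Nt5dc2* on the opposite strand, and 38 of the 426 read-length windows in its last 500 bases lie in that gene too, so a share of its counts is uncertain where strand was not used in the counting.

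*Stab2* (chr10:86841198-87008025, minus strand, 69 exons) encodes stabilin-2, the main clearance receptor for hyaluronan in liver sinusoids. It was measured at 185, 187 and 195 CPM in Txnip-/- libraries and 253, 231 and 245 CPM in WT libraries. The genotypes did not overlap, and the coefficient of variation was 2.84% in Txnip-/- and 4.55% in WT LSECs, the lowest of the 10 members in each genotype. The log2 fold change was -0.36 (SE 0.087, 95% interval -0.55 to -0.18) with an edgeR adjusted p of 0.0448. This call lay close to the threshold: it was lost without each of 5 libraries in turn (all except WT replicate 3), with adjusted p up to 0.256 without WT replicate 1. It was also lost with a term for WT replicates 1 and 2, with pan-endothelial size factors (edgeR adjusted p = 0.297) and with the replicate number as a block (0.135). The ratio of *Stab1* to *Stab2* was 1.47, 1.297 and 1.27 in Txnip-/- and 1.298, 1.49 and 1.53 in WT LSECs, so the genotypes overlapped in this ratio.

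*Mrc1* (chr2:14229392-14332057, plus strand, 30 exons) encodes the mannose receptor CD206, which LSECs and macrophages both express. Its level was 73.5, 68.8 and 75.2 CPM in Txnip-/- libraries and 134, 127 and 108 CPM in WT libraries, with WT replicate 3 the lowest of the WT libraries. All Txnip-/- libraries lay below it, and the log2 fold change was -0.76 (SE 0.11, 95% interval -0.99 to -0.53) with an edgeR adjusted p of 0.000718. *Mrc1* was called in each of the 16 alternative fits, with log2 fold changes from -0.85 to -0.55. Relative to *Stab2*, *Mrc1* stood at 0.397, 0.369 and 0.386 in Txnip-/- libraries and 0.529, 0.548 and 0.439 in WT libraries. The genotypes did not overlap in this ratio, so within these libraries *Mrc1* was lower against *Stab2* as well as in CPM.

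*Lyve1* (chr7:110850607-110863239, minus strand, 6 exons) encodes a hyaluronan receptor of lymphatic and sinusoidal endothelium. Its level was 1475, 1642 and 1976 CPM in Txnip-/- replicates 1, 2 and 3. In WT replicates 1, 2 and 3 it was 3482, 3780 and 1520 CPM. WT replicate 3 held 0.418 of the mean of WT replicates 1 and 2 and lay below 2 of the 3 Txnip-/- libraries, so the genotypes overlapped. The Txnip-/- mean was 0.468 of the mean of WT replicates 1 and 2 and 1.12 of WT replicate 3.

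The log2 fold change of *Lyve1* was -0.79 (SE 0.21, 95% interval -1.24 to -0.34) and did not pass the edgeR test (adjusted p = 0.088). Without WT replicate 3 it was -1.10 (edgeR adjusted p = 5.16e-08). With a term that set WT replicates 1 and 2 apart it was 0.16, but that term leaves WT replicate 3 as the only WT library compared. With DESeq2 it was -0.78 (adjusted p = 0.438). With no filter on low counts its adjusted p was 1.12e-23 at -0.79, but that fit had infinite prior degrees of freedom (12.9 in the fit reported), so the spread of a gene over its own libraries did not enter its test. The calls that this fit added, of *Lyve1*, *Fcgr2b*, *Cd36* and *Clec1b*, are given without weight. A level in WT replicate 3 under 0.5 of the mean of the other WT libraries was seen in 4.90% of all genes tested. The *Rn45s* share was high where *Lyve1* was low, in WT replicate 3 and in the Txnip-/- libraries. With the *Rn45s* row left out before normalization the log2 fold change of *Lyve1* was -0.79 (edgeR adjusted p = 0.0845). That fit only drops the row, so it cannot test other differences between libraries that go with the *Rn45s* share. *Lyve1* made up 60.0% to 78.7% of the members' counts in a library. The members together took 0.217%, 0.231% and 0.264% of all counts in Txnip-/- libraries and 0.476%, 0.506% and 0.247% in WT libraries. Without *Lyve1*, the other 9 summed to 743, 753 and 745 CPM in Txnip-/- libraries and 1030, 1020 and 1014 CPM in WT libraries, including WT replicate 3.

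**Figure D2:**
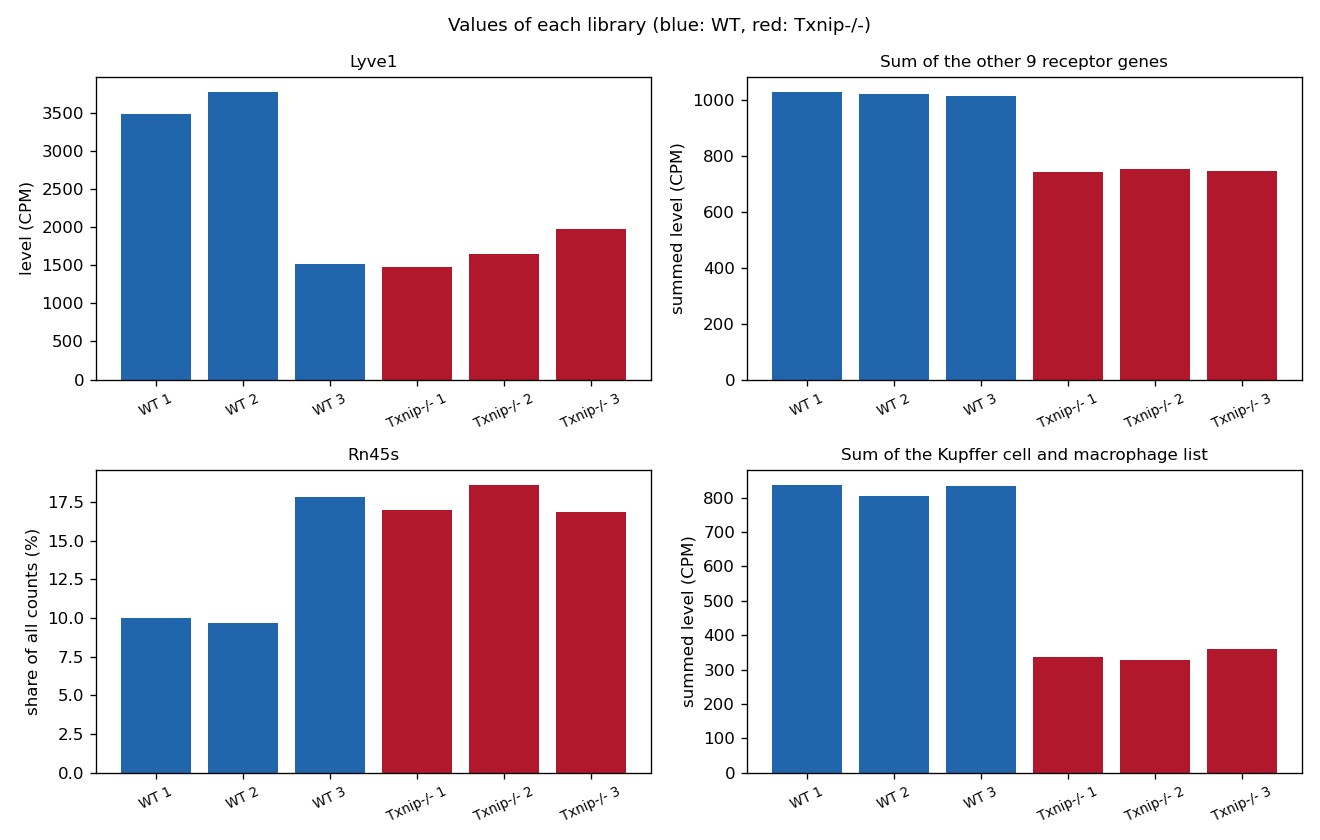
Values of each library: level of *Lyve1* and summed level of the other 9 receptor genes in CPM, share of all counts taken by *Rn45s* in percent, and summed level of Kupffer cell and macrophage genes in CPM (1 bar per library; blue, WT; red, Txnip-/-). WT replicate 3 had 1520 CPM of *Lyve1* and a *Rn45s* share of 17.8%, near the Txnip-/- libraries, while its sum of the other 9 receptors, 1014 CPM, was near those of WT replicates 1 and 2.

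*Fcgr2b* (chr1:170958617-170976547, minus strand, 8 exons) encodes the inhibitory low-affinity IgG receptor, which LSECs use to take up immune complexes. It was measured at 84.8, 86.4 and 75.6 CPM in Txnip-/- libraries and 113, 113 and 98.4 CPM in WT libraries. The genotypes did not overlap, but the log2 fold change of -0.39 (SE 0.11) did not pass the edgeR test (adjusted p = 0.09). It passed without WT replicate 3 (adjusted p = 0.0199) and with no filter on low counts (adjusted p = 0.0328).

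*Cd36* (chr5:17781690-17888801, minus strand, 15 exons) encodes a class B scavenger receptor that binds oxidized lipoproteins, thrombospondin and long-chain fatty acids. It was measured at 33.9, 48.0 and 43.4 CPM in Txnip-/- libraries and 58.0, 67.2 and 60.0 CPM in WT libraries, without overlap. Its log2 fold change of -0.56 (SE 0.14) did not pass the edgeR test (adjusted p = 0.0599). It passed with DESeq2 (0.0423) and, by edgeR, without normalization factors (0.0337), without WT replicate 3 (0.0425) and with no filter on low counts (0.00642).

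*Scarf1* (chr11:75513540-75526582, plus strand, 11 exons) encodes SREC-I, a scavenger receptor of endothelial cells for modified lipoproteins. It was measured at 33.4, 35.4 and 27.9 CPM in Txnip-/- libraries and 38.8, 34.1 and 29.8 CPM in WT libraries, and the ranges overlapped over most of their width. The log2 fold change was -0.09 (SE 0.16, 95% interval -0.42 to 0.25, edgeR adjusted p = 0.903). The sign of this value turned under 4 alternatives, whose values stand in the closing section.

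*Clec1b* (chr6:129397297-129409335, plus strand, 6 exons) encodes CLEC-2, a receptor for podoplanin that is best known on platelets. Its level was 48.9, 77.1 and 70.5 CPM in Txnip-/- libraries and 94.8, 90.3 and 84.4 CPM in WT libraries. No Txnip-/- library reached the WT range, and Txnip-/- replicate 1 was the lowest. The log2 fold change of -0.46 (SE 0.14) did not pass the edgeR test (adjusted p = 0.154) and passed with no filter on low counts (adjusted p = 0.0143). Of the 6 platelet markers 2 were tested and neither was called by edgeR, DESeq2 or limma (0 at an unadjusted p under 0.05). The platelet list summed to 18.4 to 26.0 CPM in Txnip-/- libraries and 13.5 to 19.4 CPM in WT libraries. The Kupffer cell and macrophage list summed to 327 to 360 CPM in Txnip-/- libraries and 806 to 838 CPM in WT libraries. The part of macrophage RNA in the *Clec1b* values was not tested.

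*Clec4g* (chr8:3707064-3720651, minus strand, 5 exons) encodes LSECtin, a C-type lectin of sinusoidal endothelium. It was low, with 71, 59 and 84 counts in Txnip-/- libraries and 88, 98 and 69 in WT libraries. The genotypes overlapped, and the log2 fold change was -0.14 (SE 0.29, 95% interval -0.75 to 0.47, edgeR adjusted p = 0.913). An interval this wide includes differences as large as those of *Stab1* and *Stab2*.

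*Colec12*, which encodes the collectin scavenger receptor CL-P1, was the lowest member. It had 32, 28 and 12 counts in Txnip-/- libraries and 37, 42 and 50 in WT libraries. The Poisson interval of the lowest count, 12, ran from 6.20 to 21.0, which covers counting error only. In CPM the genotypes did not overlap, but the log2 fold change of -0.74 had an SE of 0.51 and did not pass the edgeR test (adjusted p = 0.645).

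Across the 10 members, 7 had no overlap between genotypes and lay lower in Txnip-/- LSECs, and 0 lay higher. Over all genes tested 8.94% lay lower without overlap and 8.43% higher. An unadjusted p under 0.05 with a negative log2 fold change was found for 7 of the 10, beside 6.05% of all genes. With an added fold change above 1.3, 2 of the 10 were called (*Stab1* and *Mrc1*), beside 0.932% of all genes called lower. The median log2 fold change was -0.46 over the members and 0.00 over all genes tested.

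Set against WT replicate 3 alone, every Txnip-/- library was lower for 7 of the 10 members, beside 28.6% of all genes tested. The exceptions were *Lyve1*, *Scarf1* and *Clec4g*. WT replicate 3 was the lowest WT library for 6 members, beside 39.2% of all genes. For *Stab2* it stood at 1.02 of the mean of WT replicates 1 and 2, for *Stab1* at 1.12, for *Mrc1* at 0.828 and for *Fcgr2b* at 0.871.

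**Figure D3:**
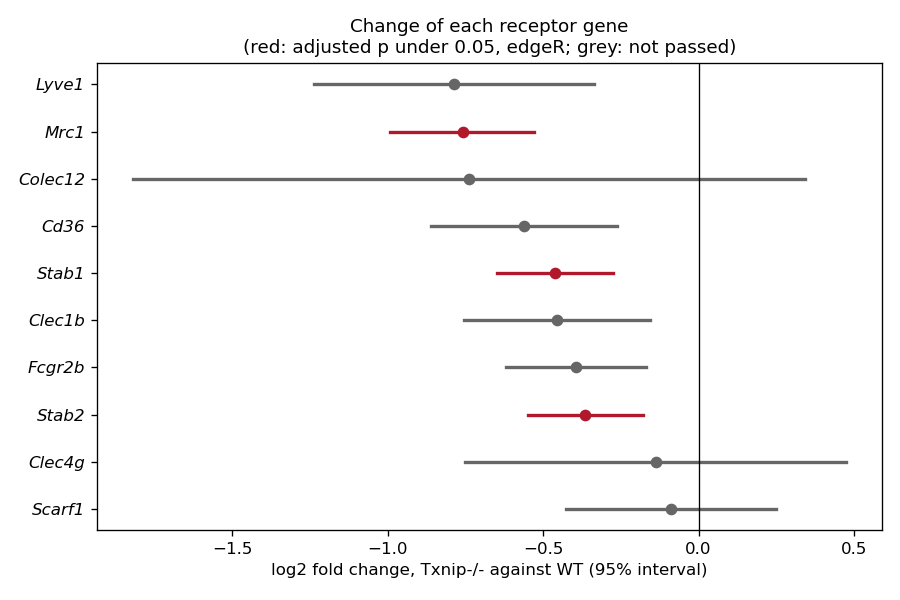
Log2 fold change of each receptor gene, Txnip-/- against WT, with its 95% interval (edgeR, n = 3 libraries per genotype; red, adjusted p under 0.05; grey, not passed). The intervals of *Scarf1*, *Clec4g* and *Colec12* reach above 0, and those of the other 7 lie below it.

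The scaling of the libraries bears on these values. Of the 179 genes called, 63.1% were lower in Txnip-/- LSECs. With no normalization factors 80.7% of calls were lower. Size factors from 16 pan-endothelial genes moved all genes up alike, by 0.21 on the log2 scale at their median. Calls then went from 66 higher and 113 lower to 897 higher and 85 lower, so 8.66% were lower. With those factors 1 member, *Mrc1*, was called. *Scarf1* and *Clec4g*, whose values lay closer to 0 than this shift, came to 0.12 and 0.07. The distance of the members' median from that of all genes, -0.46, is fixed under such a shift and is no sign of stability.

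**Figure D4:**
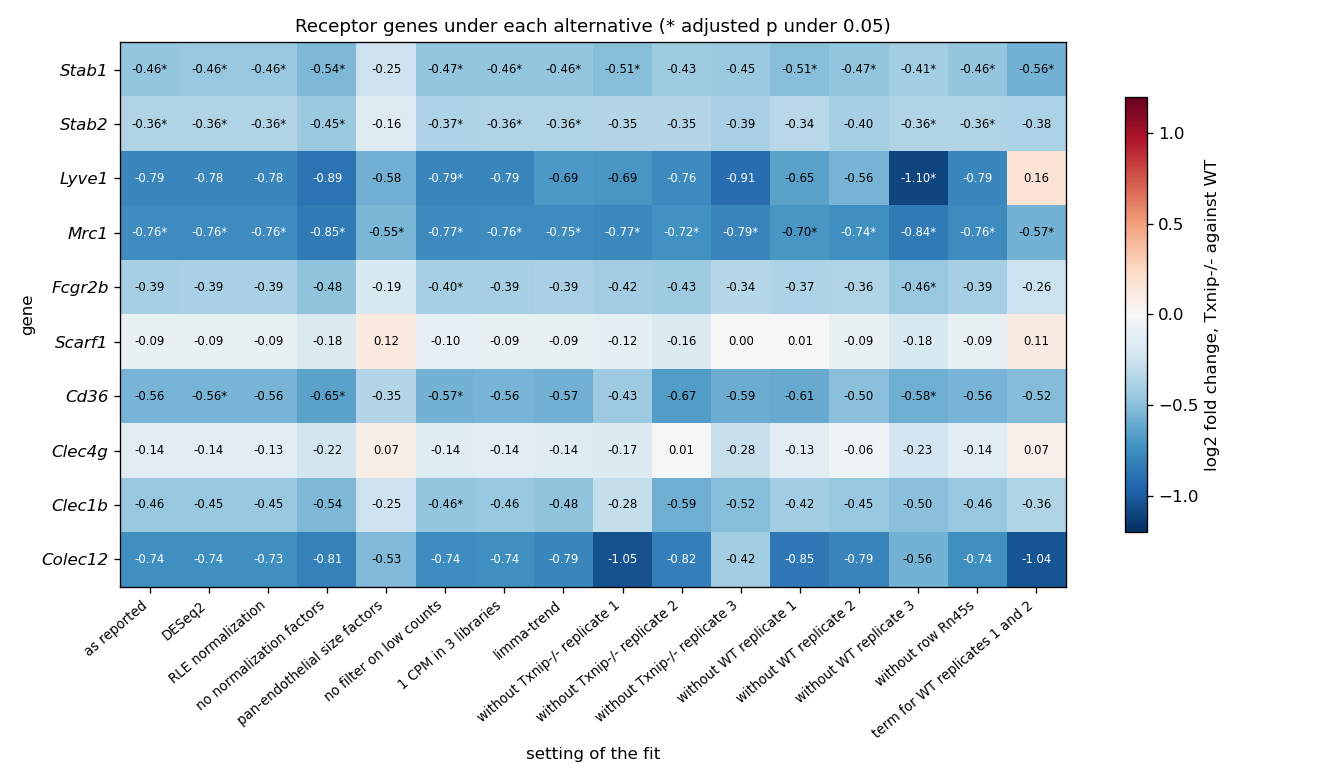
Log2 fold change of each receptor gene, Txnip-/- against WT, in each fit except the replicate block (columns; colour and number give the value, and a star marks an adjusted p under 0.05). In the fit not shown *Stab1* and *Stab2* were not called. *Mrc1* is starred in every column shown. The stars under no filter on low counts come from a fit that does not use a gene's own spread. *Lyve1* runs from -1.10 without WT replicate 3 to 0.16 with a term for WT replicates 1 and 2. That term leaves WT replicate 3 as the only WT library compared.

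Of 57 other scavenger, Fc and lectin receptor genes, 34 were tested, and 8 fell and 1 rose by the edgeR test, with a median log2 fold change of -0.30. *Cd163*, the haemoglobin scavenger receptor of macrophages, was measured at 13.0 to 13.7 CPM in Txnip-/- and 53.4 to 60.2 CPM in WT LSECs, and its log2 fold change was -2.07 (SE 0.15, adjusted p = 5.48e-07). The class A receptors *Marco* and *Msr1*, both typical of macrophages, fell by 1.07 (adjusted p = 5.23e-06) and 1.06 (adjusted p = 0.00174) on the log2 scale. The beta-glucan receptor *Clec7a* fell by 1.91 (adjusted p = 0.000128), the lysosomal glycoprotein *Cd68* by 0.75 (adjusted p = 0.00351), and *Lrp1*, a large endocytic receptor of the LDL receptor family, by 1.51 (adjusted p = 0.00313). The remaining 2 of the 8, the activating Fc receptor *Fcgr3* and the Fc receptor gamma chain *Fcer1g*, were named after their values were seen and had log2 fold changes of -1.67 and -0.58. *Cd44*, a hyaluronan receptor of many cell types, rose by 0.84 (SE 0.17, adjusted p = 0.0121), from 19.3 to 25.1 CPM in WT to 35.8 to 47.0 CPM in Txnip-/- LSECs, without overlap.

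Many of the receptors that fell in that list are expressed by Kupffer cells, the macrophages of the sinusoid. Members can be too, among them *Mrc1*, *Stab1*, *Fcgr2b* and *Cd36*, and the part of macrophage RNA in the members' values was not tested. *Cd163*, *Marco*, *Cd68*, *Clec4f*, *Timd4* and *Fcgr1* stand both among the other receptors and among the Kupffer cell and macrophage markers, so these lists are not separate. The 14 tested Kupffer cell and macrophage markers had log2 fold changes from -2.07 to -0.75 with a median of -1.48, and the sum of the list was 833 CPM in WT replicate 3, between those of WT replicates 1 and 2 (838 and 806 CPM). Its most abundant genes in WT LSECs were *Marco*, at 170 to 178 CPM in WT and 75.6 to 89.8 CPM in Txnip-/- LSECs, and *Cd5l*, a secreted macrophage protein, at 123 to 137 CPM in WT and 63.9 to 67.9 CPM in Txnip-/- LSECs. *Timd4*, *Fcgr1* and *Itgam* were at most 1.23 CPM in any library and were not tested.

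Beside the receptors, markers of LSEC identity and of endothelium in general were compared. All 12 LSEC identity markers were tested, and 11 had a negative log2 fold change (median -0.28). *Maf*, a transcription factor of differentiated LSECs, had 114 to 115 CPM in Txnip-/- and 171 to 174 CPM in WT LSECs. Its log2 fold change was -0.59 (edgeR adjusted p = 0.00129), and the part of macrophage RNA in the *Maf* values was not tested. *F8*, which encodes coagulation factor VIII, had a log2 fold change of -0.52 (adjusted p = 0.0296). Of 16 pan-endothelial markers 15 had a negative value (median -0.21), and *Robo4*, a receptor of endothelial stability, was called at -0.38 (adjusted p = 0.0465). The pan-endothelial sum was 4606 to 4887 CPM in Txnip-/- and 5062 to 5687 CPM in WT LSECs, and its part in the receptors' values was not tested. Size factors from these genes remove their common difference by construction. Of 10 capillary endothelial markers 7 were tested and 0 were called by edgeR, DESeq2 or limma, with 2 at an unadjusted p under 0.05 (edgeR) and a median of 0.20. *Dcn*, a stellate cell and fibroblast proteoglycan, rose by 0.99 (edgeR adjusted p = 0.00497), the only call among 7 tested stellate cell genes. The stellate cell list summed to 51.8 to 67.6 CPM in Txnip-/- and 42.0 to 50.03 CPM in WT LSECs. These sums include *Dcn*, at 27.6 to 32.5 CPM in Txnip-/- and 14.2 to 17.1 CPM in WT LSECs. They therefore do not show a rise of the other stellate cell genes. Lymphatic markers gave no call by edgeR, DESeq2 or limma, with 3 of 6 tested by edgeR and 0 at an unadjusted p under 0.05, and *Prox1*, which defines lymphatic endothelium, was at most 1.39 CPM. Hepatocyte and cholangiocyte lists gave no call by these tools, with 1 of 6 and 0 of 1 genes at an unadjusted p under 0.05 (edgeR).

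The machinery that carries receptors inward was measured through 58 genes of clathrin coats, endosomes and recycling, of which 53 were tested. Their median log2 fold change was 0.02, with 30 above and 23 below 0. *Snx27*, which returns receptors from endosomes to the surface, rose by 0.52 (adjusted p = 0.0311), at 65.8 to 69.1 CPM in Txnip-/- and 44.2 to 48.7 CPM in WT LSECs. *Ehd1*, which acts in endocytic recycling, rose by 0.38 (adjusted p = 0.0465). The next gene by p, *Bin1*, had 0.42 (adjusted p = 0.0776). Both calls were lost without each of 5 libraries in turn (all except WT replicate 3).

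Ligands and partners of the receptors were a list of 32 genes, of which 24 were tested, 1 rose and 5 fell, with a median of -0.01. *Thbs1*, a ligand of CD36, rose by 0.93 (SE 0.11, adjusted p = 0.000108), from 56.8 to 62.9 CPM in WT to 105 to 128 CPM in Txnip-/- LSECs. *Lpl*, the lipoprotein lipase, fell by 1.31 (adjusted p = 6.74e-06). The complement genes *C1qa*, *C1qb* and *C1qc* fell by 1.48, 1.49 and 1.49 on the log2 scale, and they are macrophage markers counted above as well. *Lcp2*, an adaptor downstream of CLEC-2 in platelets, fell by 0.79 (edgeR adjusted p = 0.0479). The part of macrophage RNA in the values of *Lpl* and *Lcp2* was not tested, and neither was signalling through CLEC-2.

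**Figure D5:**
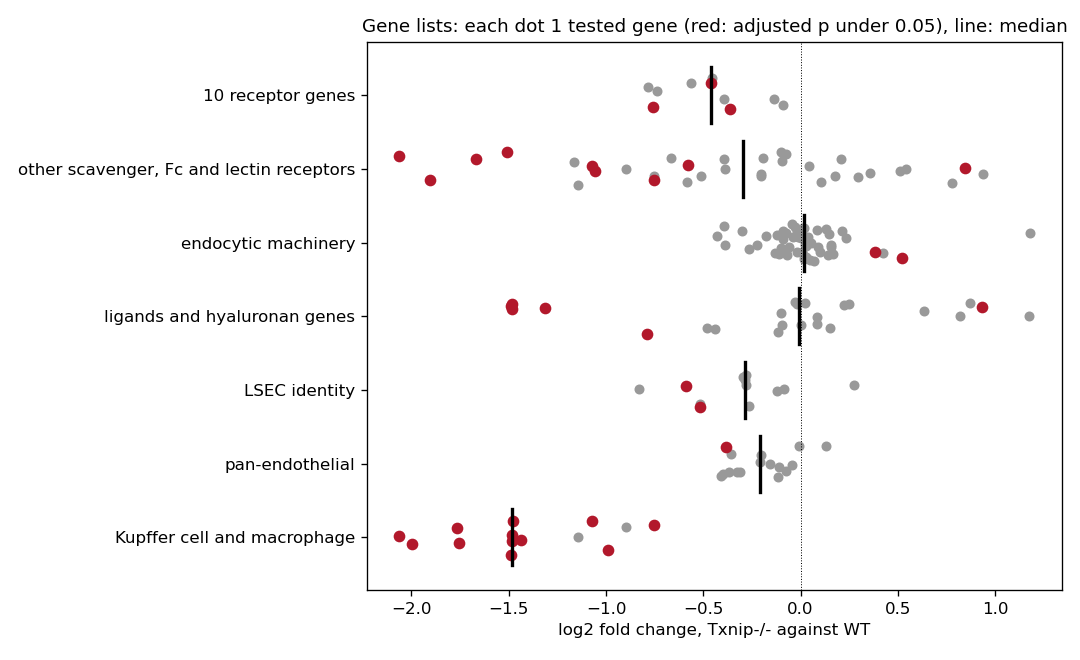
Log2 fold change of each tested gene, Txnip-/- against WT, by gene list (1 dot per gene; red, edgeR adjusted p under 0.05; line, median of the list; vertical spread for legibility). The median was -0.46 for the 10 receptor genes, -0.30 for the other receptors, 0.02 for the endocytic machinery and -1.48 for Kupffer cell and macrophage genes. Some genes, such as *Cd163* and *C1qa*, stand in more than 1 list.

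The genes whose levels most resembled *Lyve1* over the 6 libraries, among 6231 with a mean of at least 20 CPM, were *Polr2b* (Pearson r = 0.993), *Cnn2* (0.990), *Acot13* (0.988) and *Ier3ip1* (0.987). *Polr2b*, which encodes a core subunit of RNA polymerase II, was measured at 787, 808 and 472 CPM in WT replicates 1, 2 and 3 and 485 to 577 CPM in the Txnip-/- libraries. The genes most like *Stab2* were *Cbx6*, *Cd5l*, *Fcho2* and *F8* (r between 0.980 and 0.985). *Cbx6*, a Polycomb protein, was measured at 191 to 202 CPM in WT and 158 to 174 CPM in Txnip-/- LSECs. These r values describe 6 points that share library scaling and fall into the genotypes, so they carry no p. Among the members themselves *Stab2* had r = 0.95 with *Mrc1* and r = 0.58 with *Lyve1*.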

How the data were processed

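QuantSeq 3′ mRNA-Seq libraries, 3 per genotype, were read as single ends of 75 bases. The authors used Bowtie2 for alignment and bedtools for gene counts that include multiply aligned reads, and the deposited values are raw counts (mm10 per the submitters' processing notes). Versions, annotation and strand use are not given in the sources used here. Counting multiple alignments gives reads to each near-identical copy of a gene. The Poisson interval and the floor cover counting error only.

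The quasi-likelihood test of edgeR 4.0.16 (R 4.3.3; filterByExpr, TMM, glmQLFit, glmQLFTest) compared genotypes over all 6 libraries with no other term, and p-values were adjusted by Benjamini-Hochberg over 11583 genes. Genes with an adjusted p under 0.05 were called, the study's corrected p. Its log fold change limit of 1.3 does not state its base and was an alternative both as a fold and as a log2 value. Each SE is the absolute log2 fold change over the square root of F. Other alternatives used DESeq2 1.42.0, limma 3.58.1, other scalings and filters, a replicate block and each library left out. The members and gene lists were chosen with earlier results of these data known, and so were leaving out Rn45s and the term for WT replicates 1 and 2. With that term the genotype difference sets the Txnip-/- libraries against WT replicate 3 alone. All members were named. Of the other receptor, machinery and ligand lists, up to 6 called genes per direction were named by smallest p, or up to 3 genes where fewer than 3 were called. Of cell type lists the called genes were eligible, with the 2 most abundant of a list that moved with genotype, and for *Lyve1* and *Stab2* the 4 genes of highest r. GENCODE M21 (GRCm38) gave gene positions, and promoters are from RefSeq.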

Additional observations from a re-analysis of the deposited data

How the results depend on the processing

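Of the 10 receptors, edgeR called 3. The count was 1 with pan-endothelial size factors, 7 with no filter on low counts, 0 with a log2 fold change limit of 1.3 (7 had an unadjusted p under 0.05 before that limit), and 1 to 6 with each library left out. It was 1 without Txnip-/- replicate 2 or 3 and 6 without WT replicate 3. Over all genes 179 were called, and the count was 982 with pan-endothelial size factors, 346 with no filter, 57 with the log2 limit and 89 to 367 with each library left out (89 without WT replicate 1, 367 without WT replicate 3). Calls among the other scavenger, Fc and lectin receptors went from 9 to 4 with the log2 limit. Calls in the endocytic machinery went from 2 to 6 with pan-endothelial size factors. They went to 0 with no normalization factors (11 of 53 at an unadjusted p under 0.05, edgeR) and with the log2 limit. With each library left out they were 0 to 2. DESeq2 called 2. With no filter the prior degrees of freedom were infinite, so a gene's own spread did not enter its test. For the other changes the cause was not tested.

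Signs turned for 3 receptors. *Lyve1* was 0.160 with the term for WT replicates 1 and 2, which compares the Txnip-/- libraries with WT replicate 3 alone. Values of *Scarf1* ranged from -0.179 to 0.008 and of *Clec4g* from -0.276 to 0.009 with each library left out. *Scarf1* was 0.116 with pan-endothelial size factors, 0.001 without Txnip-/- replicate 3, 0.008 without WT replicate 1 and 0.112 with that term. *Clec4g* was 0.070 with pan-endothelial size factors, 0.009 without Txnip-/- replicate 2 and 0.065 with that term. None of these reversed values passed the test, and the pan-endothelial factors shift all genes up alike.

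With the replicate number as a block, 1 of the 10 receptors (*Mrc1*), 108 of all genes and 0 of the endocytic machinery (7 of 53 at an unadjusted p under 0.05, edgeR) were called, and *Stab1* (adjusted p = 0.0507) and *Stab2* (0.135) were not. Same-numbered libraries deviated with correlations of -0.030, 0.017 and -0.047, and the Txnip-/- libraries 1, 2 and 3 correlated best with WT replicates 3, 2 and 2. These are deviations from means of 3 libraries over all genes. They cannot show whether same-numbered libraries shared a day or batch, which the labels do not give. Groups of 3 limit every call, and *Clec4g* and *Colec12* rest on under 100 counts a library.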
